A study of Arabidopsis thaliana with 4 samples.

Results

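Peaks of ANAC060 chromatin that were listed only for seedlings grown without glucose, and whose centre fell inside a gene, are described here. ANAC060 is a NAC-domain transcription factor of Arabidopsis thaliana, and chromatin immunoprecipitation followed by sequencing was used to map where it sits on the genome. The sites were chosen by 2 measured properties. A peak of the no-glucose list on chromosomes 1 to 5 had to share 0 bp with any peak of the glucose list, and its centre had to lie within a protein-coding gene of the gene table. This gave 785 peaks, out of 4155 in the no-glucose list and 7014 in both lists together. Of all no-glucose peaks, 2091 (50.3%) overlapped no glucose peak, and 37.5% of those were centred in a gene. Both shares follow from the rule and are given as a description.

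NAC proteins form a large plant family that binds DNA through a conserved N-terminal domain and takes part in stress, senescence and hormone responses. ANAC060 has been linked to how seedlings respond to sugar through abscisic acid (ABA). A binding site inside a transcribed gene can lie close to the start, close to the end or deep in the coding part, and a peak list alone does not say whether the gene responds.

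The tagged line, 35S:ANAC060-GFP/anac060 in the Columbia (Col-0) ecotype, expressed a fusion to green fluorescent protein from a constitutive viral promoter in a mutant of the gene, so the protein was not limited to the cells that normally make it. An antibody to the tag pulled down chromatin of 10-day-old whole seedlings (2 g) grown with 6% glucose or without glucose, 1 library each. Input DNA of wild-type seedlings, 1 library for each condition, was the control, and an antibody precipitate of untagged plants was not used here. All seedlings had 3 days of stratification and constant light at 22 °C. A protocol label also names sorbitol without saying which plants received it. Each condition had 1 library, so differences between conditions lack a replicate check and were not tested. Intervals are exact binomial at 95% and cover counting error alone. Whole seedlings were used, so strong binding in few cells and weak binding in many cannot be told apart.

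The peaks were low in their own list. Their median score, a value the authors' peak caller gave each peak, was 138 (95% interval 134 to 143), with quartiles of 115 and 183 and a highest value of 675. Peaks of the no-glucose list alone that were centred outside genes had a median of 153 (149 to 158), shared peaks centred in genes had 219 (208 to 233), and the whole list had 180 (176 to 183). In all, 631 of the 785 peaks (80.4%) scored under 200, against 948 of 1306 (72.6%) of those outside genes and 360 of 806 (44.7%) of shared peaks in genes. The lowest quintile of the list held 265 of them (33.8%) and the highest held 48 (6.11%). The strongest of the 785 ranked 170 among all 4155 no-glucose peaks. The list starts at a score of 100.01, so much of the group lies just above the lowest value listed.

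**Figure D1:**
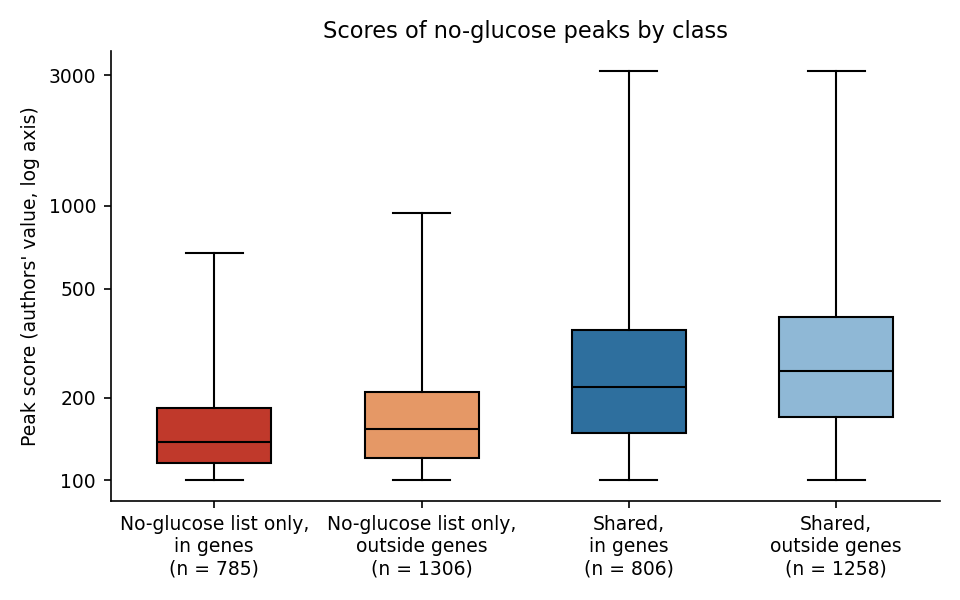
Score of each no-glucose peak (authors' value, log axis) for the 785 peaks of the no-glucose list alone in genes and 3 other classes; boxes show quartiles with the median, whiskers the lowest and highest value. The 785 peaks have the lowest median (138) and the lowest maximum (675) of the 4 classes.

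How often a gene-centred peak was missing from the glucose list went with its score, which the rule did not use directly. Wide peaks overlap others more easily, and width rose with score. Between scores of 100 to 120 and of 500 and over, median width rose from 1442 to 4570 bp for gene-centred peaks without a glucose partner. For shared ones it rose from 1444 to 4168 bp. The part of width was not tested. Among no-glucose peaks centred in genes, 237 of 315 (75.2%, 70.1 to 79.9) with a score of 100 to 120 had no glucose partner. The share was 219 of 346 (63.3%) at 120 to 150, 175 of 330 (53.0%) at 150 to 200 and 99 of 275 (36.0%) at 200 to 300. It was 48 of 213 (22.5%) at 300 to 500 and 7 of 112 (6.25%, 2.55 to 12.5) at 500 and over. Peaks centred outside genes followed the same course, with 76.7% in the lowest and 7.73% in the highest class. In every class of score the share was lower in genes than outside, with overlapping intervals. The largest gap lay at scores of 200 to 300, with 36.0% (30.3 to 42.0) in genes and 43.8% (39.7 to 48.0) outside. Over all scores the shares were 49.3% (46.9 to 51.8) and 50.9% (49.0 to 52.9), with overlapping intervals. The glucose list reached down to a score of 30.02, and 2185 of its 2859 peaks scored below the lowest no-glucose value. A missing peak therefore means that none was called there at the glucose list's own limit, and not that the site was free of protein.

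**Figure D2:**
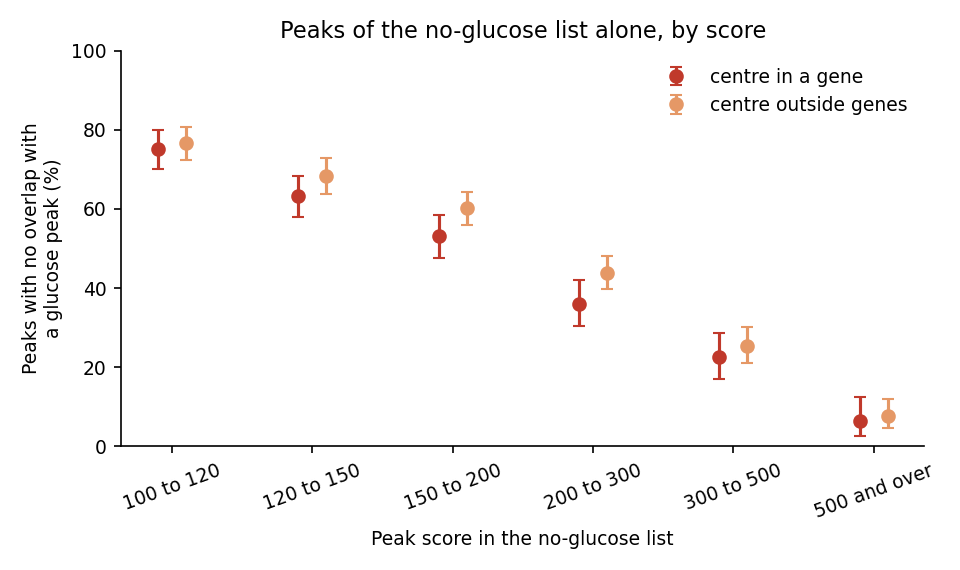
Share of no-glucose peaks that overlap no glucose peak, in 6 classes of score, for peaks centred in genes and peaks centred outside genes; bars are exact 95% binomial intervals. The share falls from class to class, and is 6.25% for gene-centred peaks at 500 and over.

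The distance to glucose peaks depended on the lowest glucose score that was counted. The lists come from separate peak calls, so their scores may not share a scale. The median distance to the nearest glucose peak, edge to edge, was 10999 bp (9901 to 12780), and 417 of 785 (53.1%) had none within 10 kb. Where glucose peaks under a score of 100 were left out, 1350 peaks met the rule and their median distance was 54112 bp. For peaks of the no-glucose list alone outside genes the median was 10275 bp (9368 to 11203). Only 12 of the 785 had a glucose peak within 250 bp and 66 (8.41%) within 1 kb. Just inside the rule were the peaks at AT4G35500 (score 120) and LPPbeta (111), which stopped 42 and 44 bp short of glucose peaks with scores of 75.48 and 69.4. Just outside it were the gene-centred peaks at MORF4 (117) and GSH1 (104), which overlapped glucose peaks by 28 and 56 bp. The other edge of the rule was equally fine. The centres at DGAT3 and CYP71B28 lay 0 and 0.5 bp inside the gene, and those near SIP3 and HB23 lay 0.5 bp outside.

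Most peaks, chosen for a centre in a gene, sat over a gene end. Their median width was 1547 bp and the median length of their genes 2469 bp. A peak of that width misses both ends only where its centre lies well inside the gene. The median distance of the centre from the nearest end of its gene was 164 bp (145 to 188). The centre lay within 100 bp of an end in 273 of 785 cases (34.8%), within 250 bp in 491 (62.5%) and within 500 bp in 652 (83.1%). The peak reached past one end of the gene in 610 cases (77.7%), past both ends in 139 (17.7%) and past neither in 36 (4.59%). Only 165 centres (21.0%) were 25% or more of the gene length away from both ends. The gene table used gives no strand, so start and end of transcription could not be told apart.

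Shared peaks centred in genes reached past a gene end as often, in 769 of 806 cases (95.4%). Over all scores their median distance was 227.5 bp (202.5 to 264), 419 of 806 (52.0%, 48.5 to 55.5) lay within 250 bp of an end, against 62.5% (59.1 to 65.9) of the 785, and 253 (31.4%) reached past both ends. Score moved with these differences. Between scores of 200 and 300, both ends were reached by 35 of 99 peaks of the no-glucose list alone (35.4%, 26.0 to 45.6) and by 54 of 176 shared peaks (30.7%, 24.0 to 38.1). Between 120 and 150 the shares were 10.5% and 11.8%, with median centre distances of 134 and 136 bp. In these classes the intervals of the shares overlapped. Below 120 they did not, with 20 of 237 (8.44%, 5.23 to 12.7) and 0 of 78 (exact upper limit 4.62%), and the median centre distances were 120 and 177.75 bp. The centres of the peaks of the no-glucose list alone were the farther ones from a gene end in 3 of the 6 classes, with 187.5 and 154 bp at 150 to 200, 391.75 and 295 bp at 300 to 500, and 517 and 407 bp at 500 and over. Peaks of the no-glucose list alone that were centred outside genes came close to genes as well, with 323 of 1306 centres (24.7%) within 100 bp of a gene end.

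**Figure D3:**
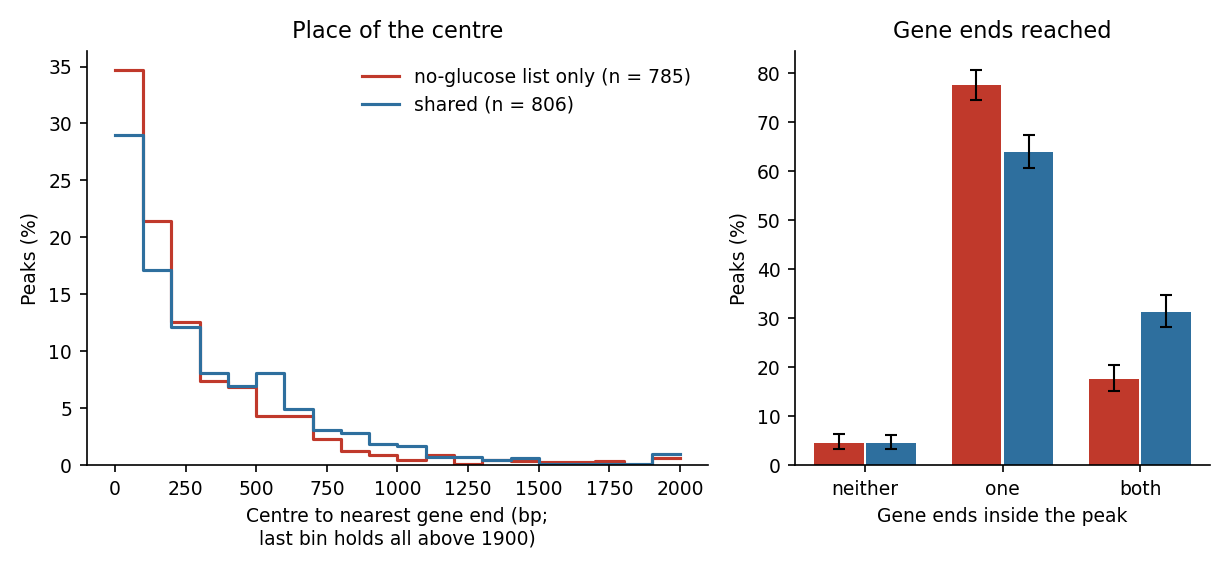
Left, distance of the peak centre from the nearest end of its gene in bins of 100 bp, as a percentage of peaks, for peaks of the no-glucose list alone and shared peaks, both centred in genes; right, share of peaks that reach neither, one or both gene ends, with exact 95% binomial intervals. Of the 785 peaks of the no-glucose list alone, 34.8% lie in the first 100 bp and 77.7% reach one gene end.

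Width went with score. The median width was 1547 bp (1524 to 1568), against 1757 bp outside genes and 1870.5 bp for shared peaks in genes. Spearman's rho between score and width was 0.59 over the 785 peaks, a description across peaks of one library. At scores of 100 to 120 the median widths were 1442 bp for the 785 peaks' share of that class, 1459 bp outside genes and 1444 bp for shared peaks in genes. At 120 to 150 they were 1482 bp (1468 to 1508), 1558 bp (1533 to 1597) and 1528 bp (1492 to 1559). At 150 to 200 they were 1630 bp (1577 to 1741), 1894 bp (1800 to 1957) and 1619 bp (1583 to 1703). In both of these classes the peaks outside genes were wider than the 785 peaks' share, with intervals that did not overlap. At 300 to 500 the median widths were 3384 bp (3020 to 3651), 2894 bp (2745 to 3174) and 2788 bp (2651 to 2933). At 200 to 300 and at 500 and over the intervals overlapped. Of the 785, 344 (43.8%) touched 2 or more protein-coding genes, against 40.0% of the peaks outside genes and 63.0% of shared peaks in genes, and 37 touched 3 or more. A peak thus names a place and not a proven target.

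**Figure D4:**
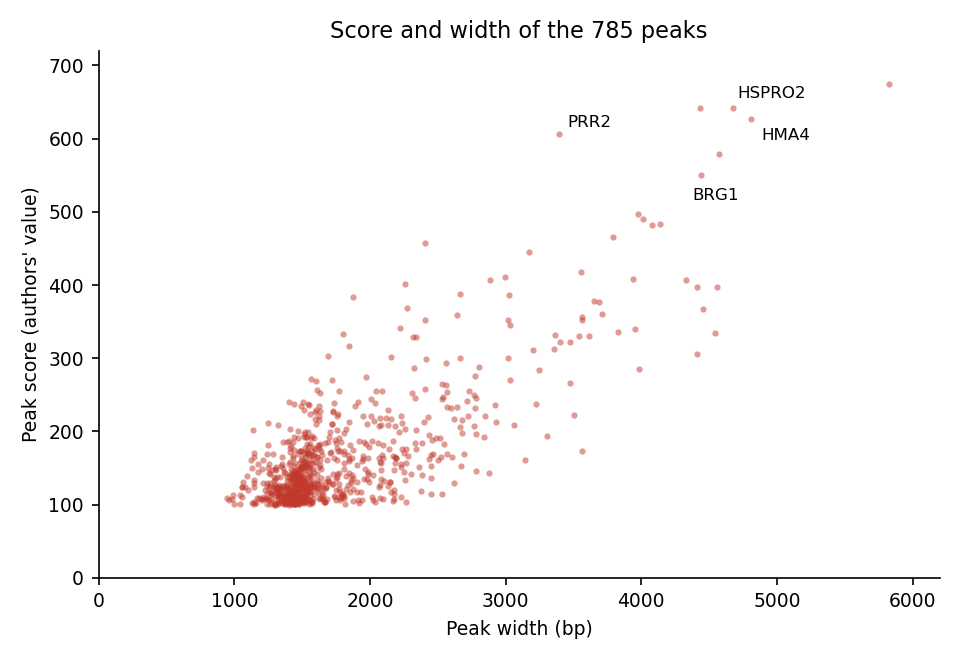
Score (authors' value) against width in bp for each of the 785 peaks, with 4 named genes labelled. Most points lie below a score of 200 and near the median width of 1547 bp, and the highest scores belong to wide peaks.

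The host genes were somewhat long. In total 794 genes held at least one of the centres, which is 2.89% of the 27444 nuclear protein-coding genes. The median length over the 785 peaks was 2469 bp (2365 to 2584), against 2220.5 bp (2077 to 2334) for shared peaks in genes and 2078 bp for all protein-coding genes. Genes of up to 1 kb made up 7.13% of the hosts (56 of 785) and 4381 of all 27444 genes, and genes over 4 kb made up 16.1% of the hosts and 11.8% of all genes. A longer gene offers more room for a centre, and this was not adjusted for. A centre fell in overlapping genes in 19 cases. There were 10 genes with 2 centres each, of 2081 to 7779 bp, among them the ABA synthesis gene NCED3, the bZIP gene TGA9 and the homeobox gene BLH2. Of the 794 genes, 91 (11.5%, 9.33 to 13.9) also had a glucose peak on the gene or within 1 kb, where 18.1% of all protein-coding genes had one. The rule lowers that share, since it leaves out places with a glucose peak.

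Chromosomes 1 to 5 carried 215, 129, 136, 133 and 172 of the peaks, which is 30.0, 29.9, 24.9, 31.8 and 27.2 for each 1000 protein-coding genes. Windows of 1 Mb with under 100 protein-coding genes, or chromosome 2 from 3 to 4 Mb, held 5 of the 785 (0.637%), against 0.766% of the peaks of that list alone outside genes and 1.24% of shared peaks in genes. They hold 2.98% of all protein-coding genes. The highest of the 5 were at the proline dehydrogenase gene ERD5 (236) and the receptor kinase gene SERK4 (182). Genes for other RNA classes were touched now and then: 63 peaks (8.03%) touched a long non-coding RNA gene, against 97 of 806 (12.0%) shared peaks in genes, and 10 touched a tRNA gene. MicroRNA genes were touched by 5 peaks, through MIR2111b at PRA1.A1 (183), MIR8121 at CYT1 (142), MIR1888b at AT3G60960 (125), MIR5634 at AT4G30760 (118) and MIR2936 at SAG21 (109).

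The highest-scoring peaks spread over genes of quite different roles. The first was centred in AT3G49790 (score 675, chromosome 3, 18466088 to 18471912, TAIR10). It was also the widest at 5825 bp and touched 4 protein-coding genes, among them the peptide hormone precursor gene PSK4. HSPRO2, named in the table as an ortholog of sugar beet HS1 PRO-1, had 641 (chromosome 2, 16699345 to 16704018) and its peak covered the whole gene. AT5G61340 also had 641. These 3 peaks reached past both ends of their genes, so the centre says little about a place within them.

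HMA4 encodes a P-type ATPase that exports zinc and loads it into the xylem. Its peak had a score of 627 (chromosome 2, 8277136 to 8281945), lay over one end of the gene, covered 40.6% of it and was 136883 bp from the nearest glucose peak. PRR2, a pinoresinol reductase gene of lignan synthesis, had 607 (chromosome 4, 7944414 to 7947810), with 77.1% of the gene covered. AT5G56980 had 579, and BRG1, a RING finger gene related to BOI, had 551 (chromosome 5, 18217590 to 18222029). AT5G14110 followed with 497. The widest after AT3G49790 were those at HMA4 with 4810 bp and HSPRO2 with 4674 bp.

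SAP5, a gene of the stress-associated A20 and AN1 zinc-finger proteins, had 490 (chromosome 3, 4010761 to 4014774). CIPK1, a kinase gene controlled by calcineurin B-like calcium sensors, had 483 (chromosome 3, 5990853 to 5994928), with the centre 110.5 bp inside the gene. AT3G53990 had 484, AT2G29995 had 466, AT5G14730 had 458, AT1G53380 had 446 and AT5G03050 had 418. The peak at AT1G53380 ended 298 bp from a glucose peak and that at AT5G03050 ended 900 bp from one, so these were close to the edge of the rule.

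Gene lists were set against the share of all nuclear protein-coding genes that held one of the centres, 2.89%. Of the 1093 genes in 23 lists, 67 (6.13%) held one, so the lists as a whole stood above that share, and a single list has to be read with this in mind. The lists come from name patterns and loci, family members can lie side by side under one peak, and no list was tested.

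Among the 23 lists, autophagy genes had the highest share, with 9 of 34 (26.5%, 12.9 to 44.4). Autophagy delivers cytoplasm to the vacuole for breakdown and is known to be induced when sugar runs short. The highest were ATG13, a regulatory subunit of the ATG1 kinase complex, with 255 (chromosome 3, 18376667 to 18378439), and APG8A, the ubiquitin-like ATG8a that marks autophagic membranes, with 234 (chromosome 4, 11654902 to 11657466). The other 7 were close to the lowest score listed. APG9, the gene of a membrane protein that helps the autophagosome grow, had 133. ATG18H had 124 and AtATG18a had 114, both genes of lipid-binding proteins of that pathway. ATG11 (AT4G30790) had 117 and ATG101 (AT5G66930) had 108, 2 further genes of the ATG1 kinase complex. APG5, part of the lipid conjugation machinery, had 102 and ATG8B had 101.

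The peaks at the autophagy genes differed in place. Their centres lay between 6 bp inside the gene at AtATG18a and 622 bp inside it at APG8A. The APG8A peak was 2565 bp wide and the ATG13 peak 1773 bp, both above the median of 1547 bp over the 785. All 9 reached past an end of their gene, as did 749 of the 785 (95.4%). The peaks at AtATG18a and APG5 also touched AT3G62780 and the clock-related gene RVE1, that at AT5G66930 touched sks17, and that at APG8A touched APR3. The ATG13 peak was 166 bp from a glucose peak, and with a minimum gap of 250 bp 8 of the genes were counted. The centre of a shared peak was held by 0 of the 34 autophagy genes and by 3% of all genes, which is within the counting error of a list of this size. Counting any peak on the gene or within 1 kb, 9 of the 34 genes had a glucose peak, where 18.1% of all protein-coding genes had one, and 18 had a no-glucose peak, where 25.5% of all had one. The 34 include 5 neighbouring genes on chromosome 3 that entered through aliases such as ATG1 and are not autophagy genes (G1, the ATG2 gene AT3G51800, G4, SAC8 and ACX4), and none of them held a centre. G4 and SAC8 are in both of the counts within 1 kb. At a score of 200 or more only ATG13 and APG8A remained, against 0.572% of all genes.

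Sugar transporter genes had 3 of 36 (8.33%, 1.75 to 22.5). SWEET16, a sugar carrier of the vacuole membrane, had 379 (chromosome 3, 5684642 to 5688292). STP7, which shares its centre with the overlapping PRL gene, had 255, and STP1, the main hexose importer of the plasma membrane, had 129. The STP1 peak lay within the gene, 1510.5 bp from the nearer end. Of the 21 sugar and energy signalling genes, 0 held a centre (exact upper limit 16.1%), an interval that overlaps that of the sugar transporters and includes the 2.89% of all genes. On the gene or within 1 kb, 6 of the 21 had a glucose peak and 10 a no-glucose peak, against 18.1% and 25.5% of all genes.

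Transcription factor families varied. ERF and DREB genes had 6 of 60 (10.0%, 3.76 to 20.5), led by AT1G22190, listed with the alias RAP2.4, with 360 and by the ethylene response factor ERF-1 with 356. CRF5, a cytokinin response factor, had 331, and RAP2.9, RAP2.1 and ERF3 had 168, 157 and 135. RAP2.9 lay in a gene-poor window. bZIP genes had 4 of 37 (10.8%, 3.03 to 25.4): TGA9 with 322 and 169 at separate peaks, bZIP2 with 299, TGA4 with 170 and BZIP25 with 134. bZIP2 belongs to the S1 group, whose translation is repressed by sucrose, and BZIP25 to the group C partners of S1 factors. WRKY genes had 5 of 72 (6.94%), of which WRKY27 with 223 and WRKY14 with 208 were highest. The centre of a shared peak was also held by 5 of the 72.

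The list named homeodomain leucine zipper genes had 4 of 54 (7.41%), with HB24 at 181 and HB30 at 131. Both of these are zinc-finger homeodomain genes that the name pattern also caught. The leucine zipper genes among the hits were HB-2 with 125 and HAT2 with 116. The bHLH list had 2 of 17, the light-signalling genes PIF3 with 164 and PIL5, also called PIF1, with 145. Heat shock genes had 3 of 46, all of heat shock factors, with HSFA7A at 252 and AT-HSFB2B at 105. The centre of a shared peak was held by 4 of the 46. ZAT and BBX genes had 1 of 39, COL5 with 285, while 9 of the 39 held the centre of a shared peak. MYB genes had 0 of 125, for which the exact upper limit is 2.91%. A no-glucose peak lay on the gene or within 1 kb for 24 of the 125, and a glucose peak for 20. The shares of all protein-coding genes were 25.5% and 18.1%. NAC genes had 3 of 103 (2.91%), near the share of all genes. One of these, NRT1:2 (352), is a nitrate and ABA transporter gene that entered through its alias NTL1. SOG1, the regulator of the DNA damage response, had 111 and NAC069, a membrane-tethered factor, had 101. More of the 103 NAC genes, 9, held the centre of a shared peak, as did 3% of all genes.

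**Figure D5:**
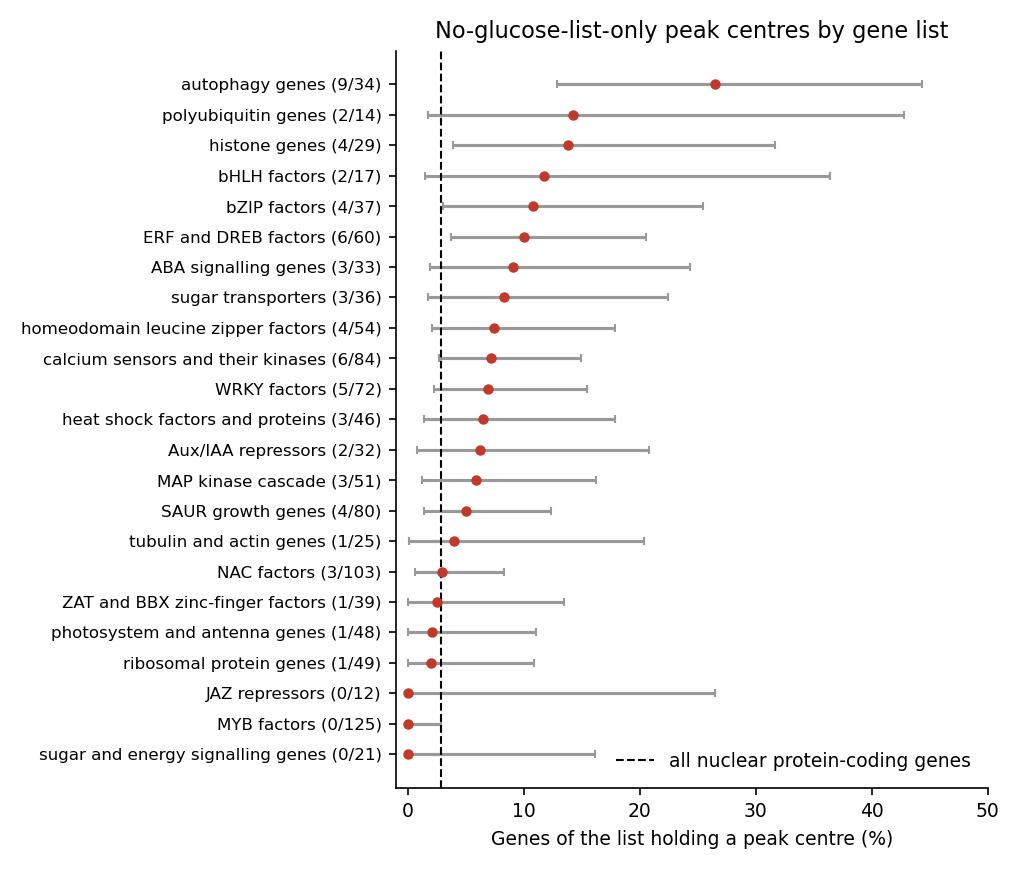
Share of the genes of each of the 23 lists that held a centre of the 785 peaks, with exact 95% binomial intervals and, as a dashed line, the share of all nuclear protein-coding genes (2.89%). The autophagy genes stand highest at 26.5%, and the intervals of most lists include the line.

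Among ABA signalling genes, 3 of 33 (9.09%, 1.92 to 24.3) held a centre. The receptor genes PYL3 and RCAR3, also called PYL8, had 185 and 152. The phosphatase gene HAI1 had 107, and its peak ended 290 bp from a glucose peak. More of the 33 genes, 5, held the centre of a shared peak, as did 3% of all genes. A no-glucose peak lay on the gene or within 1 kb for 19 of the 33, and a glucose peak for 16. The shares of all protein-coding genes were 25.5% and 18.1%. NCED3, the 9-cis-epoxycarotenoid dioxygenase of drought-induced ABA synthesis, carried peaks with scores of 151 (chromosome 3, 4832931 to 4834237) and 103 (4830682 to 4832086). Each lay over one end of the gene, and the nearest glucose peak was 27321 bp away. NCED3 is on none of the lists and was added after its values were seen.

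Aux/IAA repressor genes had 2 of 32, IAA18 with 317 and IAA7 with 108, and SAUR growth genes had 4 of 80, with AT4G34750 at 245 and AT2G36210 at 166. JAZ repressor genes had 0 of 12 (exact upper limit 26.5%). Yet 8 of the 12 had a no-glucose peak on the gene or within 1 kb, and 7 had a glucose peak there. The shares of all protein-coding genes were 25.5% and 18.1%. MAP kinase genes had 3 of 51, MPK17 with 221, MKK3 with 174 and MEKK1 with 157, while 6 of the 51 held the centre of a shared peak. Calcium sensors and their kinases had 6 of 84 (7.14%), where CIPK1 with 483 was followed by CML38 with 176. The centre of a shared peak was held by 7 of the 84.

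Histone genes had 4 of 29 (13.8%, 3.89 to 31.7), the H2A genes HTA7 with 176 and HTA10 with 130, the H2B gene HTB9 with 125 and the H4 gene HIS4 with 106. Of the 29, 5 held the centre of a shared peak. The list named polyubiquitin genes had 2 of 14, UBQ10 with 111 and UBQ1 with 110, and the UBQ10 peak was 356 bp from a glucose peak. UBQ1 encodes ubiquitin fused to a ribosomal protein and is not a polyubiquitin gene. Photosystem, ribosomal protein, and tubulin and actin genes had 1 of 48, 1 of 49 and 1 of 25, these being PSAD-1 with 104, AT1G77750 with 130 and TUB4 with 122. ANAC060, the source of the transgene, was not in the group, since a glucose peak with a score of 171 overlapped a no-glucose peak with 3100 there. The tagged line carried transgene DNA that the wild-type input lacked, and its part in the scores at ANAC060 was not tested. ABI5 was left out by the same rule, with a glucose peak of 32.27 and a no-glucose peak of 148.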

How the data were processed

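Per the submitters' processing notes, FastQC, BWA 0.7.15-r1140 and the TAIR10 build were used on the reads. MACS peaks with the local background model off were deposited as 2 lists, per the file headers, each from 1 precipitate and 1 input. For glucose, the header adds that the shift model was off and that p was set at 0.001. The score in each deposited list is the authors' own value per peak, from 30.02 to 3100 with glucose and from 100.01 to 3100 without. The 4155 no-glucose peaks carry numbers up to 7292. How the others were left out, the MACS version and the depth are not given in the sources used here.

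Positions were read as 1-based. Genes came from the RefSeq table of TAIR10.1, used for names and for which gene a centre lies in. A peak was shared at an overlap of 1 bp. Python 3.11.15, numpy 2.4.6, pandas 2.3.3 and scipy 1.17.1 were used, and overlaps, gaps and centres were tested on simulated data. Medians carry order-statistic intervals. All patterns matched symbols or aliases whole.

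The peaks and lists were chosen with earlier results of these data known. Named genes were those of the 15 highest peaks outside gene-poor windows, the 2 highest of each list, the 3 widest, the peaks at the edges of the rule, ANAC060 and ABI5. Others were added after their values were seen. Sequences and the planned promoter motifs were not analysed here.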

Additional observations from a re-analysis of the deposited data

How the results depend on the processing

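Of 10 alternatives, 1 (starts counted from 0, giving 787 peaks) was added after seeing the data, as were all for the autophagy genes and, for the list genes, all but the 250 bp gap, the glucose minimum and the list median. The 785 peaks, their 794 genes and the 67 list genes stayed within 1.5 times for a 250 bp or 1 kb gap, merging, no gene-poor windows and 50% reciprocal overlap. With 50% reciprocal overlap the median score was 143, the width 1578 bp and the distance to a glucose peak 8370 bp, and with a 1 kb gap that distance was 13300 bp. Where only glucose peaks with a score of 100 or more counted, there were 1350 peaks in 1367 genes and 103 list genes, with medians of 156, 1606 bp and 54112 bp. The group was thus larger by over 1.5 times at that glucose minimum, and 9 autophagy genes were counted there, against 4.98% of all genes. The lists come from separate peak calls whose scores may not share a scale, so an equal minimum need not be equally strict. At a score of 200 or more there were 154 peaks, 157 genes and 18 list genes, with medians of 254 and 2412 bp and 99.4% over a gene end. Above the list's median these were 204, 209, 21, 233, 2231.5 bp and 99.0%. With the centre at least 100 bp inside the gene they were 513, 519, 47, 147, 1679 bp and 93.0%, and 4 autophagy genes were counted, against 1.89% of all genes. These moves follow from which peaks each setting keeps. No paired analysis was possible because each group has 1 library. Depth is unknown.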

Other observations

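Some gene groups outside the 23 lists were noticed among the high scores and counted afterwards, so their counts are only descriptions. Of all nuclear protein-coding genes, 2.89% held a centre. Type-A response regulators, which dampen cytokinin signalling, held a centre in 3 of 10 genes: ARR6 with 387 (chromosome 5, 25252497 to 25255522), ARR9 with 329 (chromosome 3, 21108101 to 21110437) and RR3 (AT2G41310) with 121. Of the 10, 2 held the centre of a shared peak, as did 3% of all genes. The 3 of 10 (30.0%) have an exact interval of 6.67 to 65.2. The cytokinin receptor gene WOL had a peak with a score of 167 that lay wholly within the gene, 1196.5 bp from the nearer end.

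Nitrate transporter genes had 3 of 36 (8.33%, 1.75 to 22.5), as many as the sugar transporters and against 2.89% of all genes. NRT1.1, the nitrate transporter and sensor of the root, had 408 (chromosome 1, 4104523 to 4108459), with the centre 1268 bp inside the gene and a glucose peak 442 bp away. NRT1:2 had 352 and the glucosinolate transporter gene GTR1 had 104. Genes of 14-3-3 proteins, which bind phosphorylated partners, had 3 of 12: GRF2 with 331, GRF10 with 146 and GF14 PHI with 100.3. SMR7 (AT3G27630), an inhibitor of the cell cycle, had 368, and was the only one of 5 genes of its family with such a centre. On the gene or within 1 kb, 4 of the 5 had a no-glucose peak and 2 a glucose peak, against 25.5% and 18.1% of all genes.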
